A study of Triticum aestivum with 18 samples.

Results

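The transcripts described here are the 42 array probe rows, of 45220, that dropped strongly with aluminium (Al) in root apices of bread wheat and of one wheat-rye addition line but changed much less in another. They were chosen on mean log2 changes, Al sample minus control sample over 3 replicates. The mean change had to be -2 or lower, a fall of at least 4-fold, in cultivar Chinese Spring (CS) and in the rye 6R addition line. It had to be above -1, less than a 2-fold fall, in the rye 3R addition line. The mean level of the 3R control samples had to be 7.3 or more on the log2 intensity scale, and rows of the genes TaGlu1a, Taglu1b and Prx113-F were set aside by name, although none of their rows met the limits. Of the 269 rows at -2 or lower in both CS and 6R, 80 were that low in 3R too, 145 lay between -2 and -1 in 3R, and 44 lay above -1. The control limit removed 2 of these 44.

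All samples were root tips 1 cm long, 9 tips pooled per replicate, from seedlings of 5 days. The CS groups are wheat with no rye chromosome, the 3R groups the complete wheat genome with a pair of rye 3R chromosomes, and the 6R groups the same with rye 6R. After 4 days in acid nutrient solution, seedlings of each line spent 24 h in fresh solution with 200 µM AlCl3 or without it, which gave 6 groups of 3 samples, called biological replicates in the labels. Both samples of a replicate, Al and control, were hybridised to the same 1 of 9 arrays, one in Cy3 and the other in Hyper 5 dye. Each addition line stands for its whole added chromosome pair, and the array was designed for wheat, so a rye transcript is seen only where it binds a wheat probe.

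Soluble aluminium is the main cause of poor root growth on acid soils, and the root apex is where it enters and acts. It stops cell elongation there and disturbs cell walls, membranes and the cytoskeleton. Rye is among the most Al-tolerant small-grain cereals, and loci for tolerance have been mapped to several of its chromosomes. In wheat and rye, organic acids released from the apex bind the metal and are a known part of tolerance.

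None of the 42 members has a gene symbol in the platform annotation, which names 996 rows and leaves 44224 without one, so members are given by their row number on the array and no role is given to any of them. No probe sequence was used here.

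The members went down with Al in CS to a median change of -2.85 (from -4.83 to -2.02) and in 6R to a median of -2.68 (from -4.36 to -2.0018), while the 3R changes ran from -0.98 to 0.40 with a median of -0.72. These are the values that chose the members, and they are given as a description. As a fold, the median member was 7.20 times lower with Al in CS, 6.42 times lower in 6R and 1.65 times lower in 3R. Falls of -3 or lower in both CS and 6R were found for 9 members. In single arrays, 41 of the 42 members were below 0 in all CS arrays and 42 in all 6R arrays. In 3R, 25 were below 0 in all arrays, 10 were above 0 in 1 array, 6 in 2 arrays and none in 3, and 1 stood at exactly 0 in an array. The mean 3R change was above 0 for 3 members. By array, the median change over the members was -0.80, -0.67 and -0.39 in replicates 1 to 3 of 3R, against -3.02, -2.49 and -3.08 in CS and -2.45, -2.96 and -2.74 in 6R. Over all 45220 rows the medians of the mean changes were -0.01, -0.01 and 0.00 in CS, 3R and 6R (-0.0072, -0.0138 and -0.0049).

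**Figure D1:**
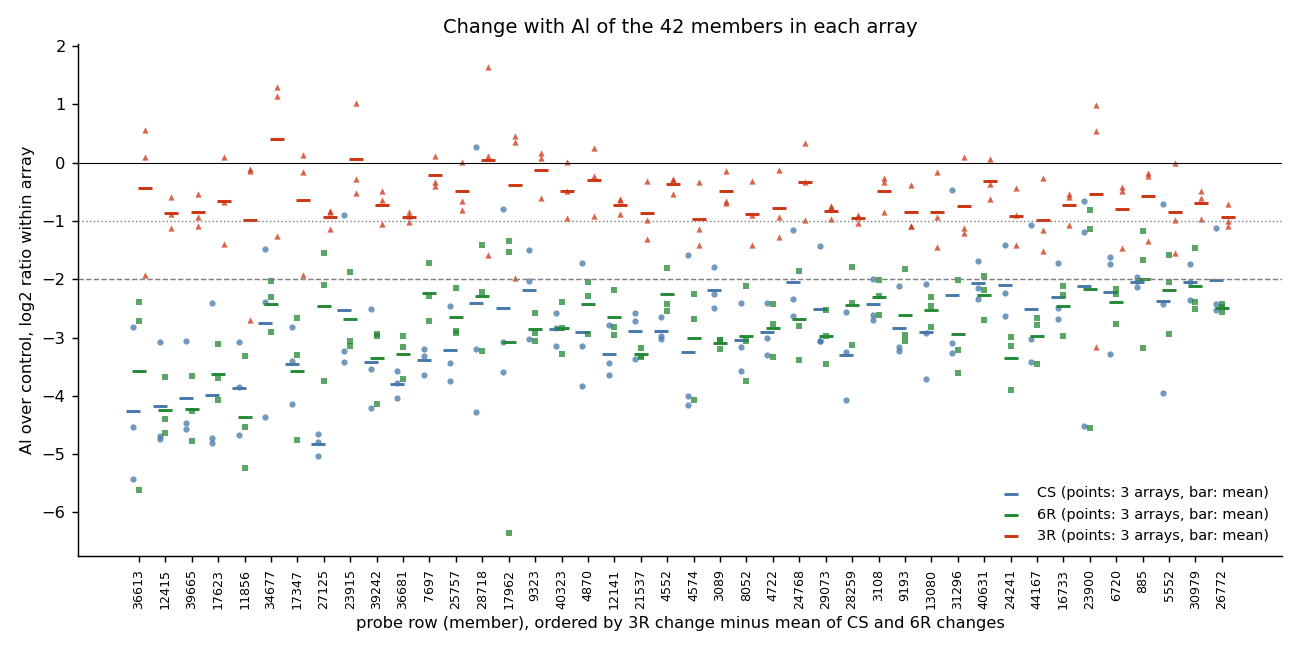
Log2 ratio of the Al to the control channel of an array (y axis) for each of the 42 members (x axis, by row number), with the 3 arrays of CS, 6R and 3R as points and their mean as a bar. Dashed and dotted lines mark the limits of -2 and -1 that chose the members, so the gap between the means is set by the choice, and what the plot adds is the spread of the arrays, with 35 members whose 3R arrays all lie above all CS and 6R arrays.

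For 35 members (83.3%) the 3 ratios of 3R lay above all 6 ratios of CS and 6R, where 1.42% of all rows showed this order. The order held against CS alone for 36 members (4.43% of all rows) and against 6R alone for 38 (4.12%). The rule used these contrasts, so the shares describe the members and are no test of them. The 7 members whose arrays overlapped were rows 28718, 17962, 31296, 44167, 23900, 885 and 5552, singled out after their values were seen.

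Of the members, limma called 41 lower with Al in CS, where 11.4% of all rows were called lower, and 42 in 6R, where 13.3% were. In 3R it called 14 lower, against 7.19% of all rows. The member not called in CS was row 17962 (mean change -2.49, adjusted p = 0.118), whose 3 CS arrays gave -3.59, -0.79 and -3.08. The response of 3R stood above that of CS with a call for 27 members (1.08% of all rows) and above that of 6R for 27 (0.686%), and 23 had both calls. That of 6R differed from that of CS with a call for none in limma (0.318% of all rows, and 10 members at an unadjusted p under 0.05). These comparisons share samples, and all of these contrasts entered the rule, so nothing is read from the counts. The 14 calls in 3R fell to 1 without the dye term (1.39% of all rows), to 0 without the array block (0.495%) and to 2 without 3R replicate 2 (1.58%). The 27 calls against 6R fell to 3 without the dye term (0.0907% of all rows) and to 4 without the array block (0.0354%). They fell to 16 without 3R replicate 1 (0.190%) and to 16 without 3R replicate 3 (0.206%). The 27 calls against CS fell to 8 without the dye term (0.285%) and to 10 without the array block (0.270%). Calls over all rows thus fell in these settings too.

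The 12 members with the largest difference between the 3R change and the mean of the CS and 6R changes were rows 36613, 12415, 39665, 17623, 11856, 34677, 17347, 27125, 23915, 39242, 36681 and 7697. In each of these 12 rows the 3 ratios of 3R lay above all 6 of the other lines. Their differences ran from 2.61 to 3.49 log2 units.

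Row 12415 was bright, and its 3R control samples had the smallest SD of all members (0.0241, n = 3). Its 3R samples read 13.50, 13.53 and 13.48 without Al and 12.61, 12.94 and 12.36 with Al. In CS the control samples read 13.62, 13.32 and 13.39 and the Al samples 8.94, 10.25 and 8.64. In 6R the control samples read 13.57, 13.69 and 12.69 and the Al samples 9.90, 9.06 and 8.29. The 3 lines overlapped without Al, and with Al every 3R sample was more than 2 log2 units above every CS and 6R sample. The changes were -0.87 ± 0.27 in 3R (SD, n = 3 arrays), -4.17 ± 0.95 in CS and -4.24 ± 0.50 in 6R, or 1.82-fold, 18.0-fold and 18.8-fold lower.

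Row 39665 followed row 12415 closely, with a Pearson correlation of 0.984 over the 18 samples, which share arrays and treatment. Its control samples lay between 12.66 and 13.48 in all lines. With Al it read 12.40, 12.51 and 11.99 in 3R, 9.00, 10.04 and 8.49 in CS and 9.83, 7.88 and 8.58 in 6R. The mean 3R change was -0.85, against -4.04 in CS and -4.23 in 6R. Of 861 pairs of members, this was the 1 pair above 0.98, and 19 pairs were above 0.95, with a median of 0.820 over all pairs. Whether such rows hold probes of the same transcript is not given in the annotation.

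Row 36613 showed the largest difference between lines and also a wide spread. Its 3R control samples were 11.75, 9.40 and 9.34, and its 3R samples with Al were 9.81, 9.96 and 9.44. Its ratios were -1.93, 0.55 and 0.10 in 3R, -5.43, -2.83 and -4.53 in CS and -2.38, -5.61 and -2.71 in 6R. Replicate 1 of 3R stood apart from the others, with a high control sample, and the 3R mean of -0.43 has an SD of 1.32 (n = 3 arrays).

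In row 17623 the Al samples read 11.06, 11.84 and 11.21 in 3R, 7.75, 8.88 and 7.81 in CS and 9.17, 9.27 and 7.75 in 6R, while control samples lay between 11.29 and 13.34. Of the 3R samples with Al, 2 were below the lowest 3R control sample, 11.74, and every one was above all CS and 6R samples with Al. Row 11856 was the member nearest to the -1 limit, with a 3R mean of -0.98 made of -0.11, -2.70 and -0.14. Its CS ratios were -3.08, -4.68 and -3.85 and its 6R ratios -5.24, -3.31 and -4.53. In each line the array with Al in Hyper 5 gave the lowest ratio of this row.

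Row 17347 also had its lowest ratio in that array of each line, with 3R ratios of 0.14, -1.92 and -0.16, CS ratios of -2.83, -4.14 and -3.40 and 6R ratios of -4.76, -3.29 and -2.66. Row 34677 was the member with the highest 3R mean, 0.40 ± 1.44 (SD, n = 3 arrays). It read 9.79, 7.69 and 10.12 in the Al samples of 3R after 8.63, 8.95 and 8.82 in the controls. Of its 3R arrays, 2 gave a ratio above 1 and the array with Al in Hyper 5 gave -1.26. All its CS and 6R ratios were at -1.48 or lower.

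Row 27125 had the deepest CS change of the members and differed most between CS and 6R. Its CS ratios were -4.65, -4.79 and -5.04, its 6R ratios -2.09, -3.74 and -1.55, and its 3R ratios -1.13, -0.83 and -0.85. The means of -4.83, -2.46 and -0.94 put 6R between the other lines, and the 3 sets of arrays did not overlap. For this row limma called 3R against CS (adjusted p = 0.0096). It did not call 6R against CS (adjusted p = 0.1441) or 3R against 6R (adjusted p = 0.2775). CS and 6R differed by over 1 log2 unit for 2 further members, rows 7697 and 24241, and by at most 0.5 for 28 of the 42.

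Rows 23915, 39242, 36681 and 7697 complete the 12. Row 36681 had the tightest arrays of these, with 3R ratios of -0.84, -1.02 and -0.92 and CS ratios of -3.78, -3.58 and -4.04, and 6R ratios of -3.16, -3.71 and -2.98. Row 39242 gave -0.48, -0.65 and -1.06 in 3R and -2.51 or lower in every CS and 6R array. The 3R mean of row 23915 was 0.07 ± 0.83, with ratios of -0.52, 1.02 and -0.28. Row 7697, at -0.34, -0.40 and 0.12 in 3R, was the row of the 12 with the lowest 3R controls relative to the other lines, at 9.24, 8.86 and 8.15 against 10.31, 10.63 and 10.55 in CS. Among the 30 members outside the 12, 3R means ran no higher than 0.05 (row 28718), and CS and 6R means were between -3.34 and -2.0018.

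Rows 4552 and 12141, outside the 12, were singled out after their values were seen. Row 4552 gave -0.53, -0.29 and -0.29 in 3R, -2.97, -2.65 and -3.03 in CS and -1.81, -2.55 and -2.42 in 6R. Row 12141 gave -0.88, -0.63 and -0.64 in 3R and -2.19 or lower in all CS and 6R arrays. These rows correlated at 0.975 with each other over the 18 samples, and in both every 3R ratio lay above all CS and 6R ratios.

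The brightest members in 3R were rows 9323 and 40323. Row 9323 had a mean control level of 13.92 in 3R, 13.98 in CS and 13.73 in 6R, and its 3R ratios were 0.08, -0.61 and 0.18 against -1.49 or lower elsewhere. Row 40323 stood at 13.72 in 3R controls, with 3R ratios of -0.49, -0.95 and 0.01 and ratios of -2.39 or lower elsewhere. In these bright rows 3R with Al kept a mean of 13.80 and 13.24, where CS had 11.80 and 11.25 and 6R had 10.88 and 11.25.

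The dimmest members in 3R were rows 13080, 5552 and 17962. Row 13080 gave -0.93, -1.45 and -0.16 in 3R, -2.08, -3.72 and -2.93 in CS and -2.47, -2.30 and -2.82 in 6R, with no overlap. Row 5552 gave -1.55, 0.00 and -0.98 in 3R (the middle value was exactly 0) and overlapped CS, at -3.95, -0.71 and -2.43. Row 17962, at -1.98, 0.46 and 0.36 in 3R, overlapped both lines, and its 6R ratios of -1.35, -6.35 and -1.54 had the widest spread of any member in 6R (SD 2.83, n = 3 arrays).

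Single arrays also carried other members. Row 28718 gave 0.27, -4.27 and -3.19 in CS and 1.64, -1.58 and 0.11 in 3R, and its first CS array was the 1 CS ratio above 0 among all members. Row 31296 gave -3.26, -0.47 and -3.09 in CS, and row 44167 gave -3.03, -1.07 and -3.42, in each with the array of Al in Hyper 5 as the highest. Their 3R ratios were -1.11, 0.09 and -1.20, and -1.52, -0.26 and -1.16, with the same array highest.

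**Figure D2:**
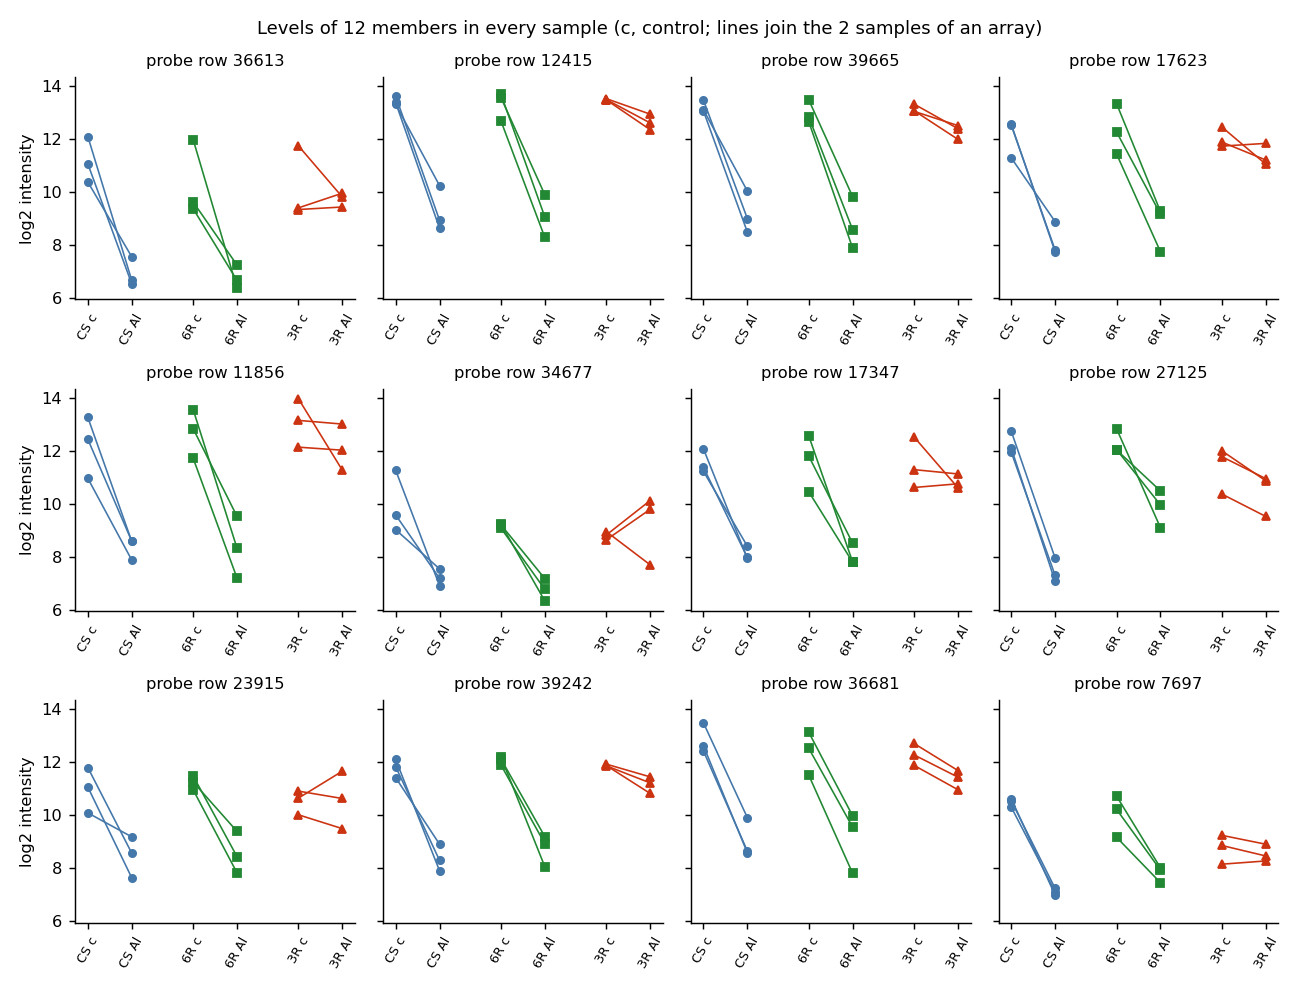
Log2 intensity (y axis) of the 12 members in all 18 samples, with CS, 6R and 3R side by side, control (c) on the left and Al on the right of each pair, and lines joining the samples of an array. The CS and 6R lines mostly drop steeply, and the 3R lines drop less or rise. The 3R drop is close to 1 log2 unit in every array of row 36681. It is larger in single arrays such as replicate 1 of row 36613 and replicate 2 of rows 11856, 34677 and 17347. Among the 3R lines that rise are replicates 1 and 3 of row 34677 and replicate 2 of row 23915.

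The smaller 3R change came with a difference in the Al samples more than in the controls. With Al, the mean 3R level was above the mean of CS and 6R for 42 of 42 members, by a median of 1.81 log2 units (from 0.58 to 3.75). With Al, limma called 29 members higher in 3R than in CS (1.03% of all rows) and 25 higher in 3R than in 6R (0.851%), counts that the choice of members also favours. In the controls, 3R was lower for 31 members, with a median difference of -0.32 (from -1.52 to 0.62). The control difference was within 0.5 for 24 members, below -0.5 for 16 and above 0.5 for 2. The difference with Al exceeded the control difference in size for 39 members. The rule sets a lower bound on the Al difference minus the control difference. Its limit on the 3R control level also acts on how that is split between controls and Al samples. That limit removed 2 rows with low 3R controls (6.23 and 6.09), so the split is partly set by the choice.

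These are levels set across lines that look normalized separately. Over 9679 rows of like brightness the 3R level was -0.21 from the other lines without Al and -0.24 with it. After quantile normalization of all 18 samples together the members stood at -0.17 without Al and at 2.03 with it, and the rows of like brightness at 0.03 and -0.00 (-0.0014). The other 227 strong falls stood at -0.09 without Al and 1.29 with it as deposited, and at 0.04 and 1.52 on the common scale, so a higher 3R level with Al was not particular to the members. For the members the difference with Al was there on both scales, and the control difference was smaller on the common one, where 26 members were lower in 3R.

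**Figure D3:**
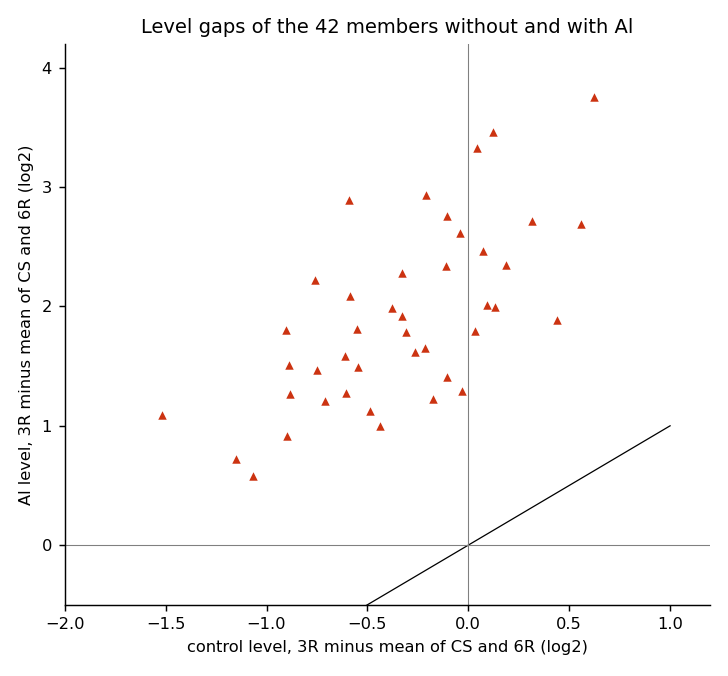
Each of the 42 members by its level in 3R minus the mean of CS and 6R, without Al (x axis) and with Al (y axis), in log2 units, with the diagonal of equal differences. All points lie above the diagonal by construction, and they spread around 0 on the x axis (from -1.52 to 0.62) but reach from 0.58 to 3.75 on the y axis.

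Control levels of 6R and CS, a contrast that the rule does not use, did not pass the test for any member. limma called 0 of 42, with 5 at an unadjusted p under 0.05, where 0.0619% of all rows were called and 7.83% had such an unadjusted p. The median difference, 6R minus CS, was 0.01 (from -0.90 to 1.32). Al levels of 6R and CS gave 0 of 42 as well (0.429% of all rows, and 4 members at an unadjusted p under 0.05). Control levels of 3R and CS differed for 2 members, rows 7697 (-1.74 ± 0.33, SE, adjusted p = 0.0128 in limma, lower in 3R) and 4552 (-0.92 ± 0.18, adjusted p = 0.0148), a share of 4.76% against 2.66% of all rows called lower. limma called no member between 3R and 6R controls, where 1.23% of all rows were called and 6 members had an unadjusted p under 0.05.

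The rule sets a lower bound on the 3R levels, so their height is a description. The lowest value in the 3R samples is 5.64, and the mean 3R control of the members ran from 7.96 to 13.92, with a median of 11.34. It left room of at least 2.32 log2 units above that lowest value for every member, and for 3 members less room than the mean fall of CS and 6R. The CS and 6R means with Al were under 6.3, close to the floor, for 2 members each, while the limits of the rule keep every 3R mean with Al above that level.

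Around the limits on the changes the values ran on without a break. Just inside the 3R limit were rows 11856 (-0.98), 44167 (-0.98) and 4574 (-0.96), and just outside were rows 1206 (-1.0026), 27640 (-1.02) and 41260 (-1.03). For the CS limit these were rows 26772, 885 and 24768 (-2.02 to -2.04) and rows 43138, 38641 and 26715 (-1.99 to -1.93). For 6R they were rows 885, 30979 and 23900 (-2.0018 to -2.17) and rows 29170, 16409 and 38739 (-1.92 to -1.91). The control limit of 7.3 fell in an empty stretch, between rows 13080 (7.96), 5552 (8.04) and 17962 (8.11) inside and rows 21650 (6.23) and 24248 (6.09) outside.

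The members are part of a wider shift, and the rule puts them at the upper end of the 3R changes. By that choice their difference between lines was larger too, with a median of 2.18 log2 units against 1.31 in the other 227 rows. They do not hold the largest differences, though. The largest difference among the other 227 rows was 4.01 log2 units, against 3.49 among the members. It was that of row 5987 (3R -1.03, mean of CS and 6R -5.04), whose share was 20.5%. Among all 269 rows at -2 or lower in CS and 6R, the 3R change was a median of 51.2% of the mean of the other lines, from -15.4% to 131% (in log2 units). It was 24.0% for the members by choice, and 54.7% for the other 227. Sorted by the depth of the CS and 6R fall, the median share was 45.2% for the 61 rows below -4, 51.3% for 82 rows between -4 and -3, 48.4% for 69 rows between -3 and -2.5 and 55.3% for the 57 shallowest rows. The members numbered 3, 9, 19 and 11 in these ranges.

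**Figure D4:**
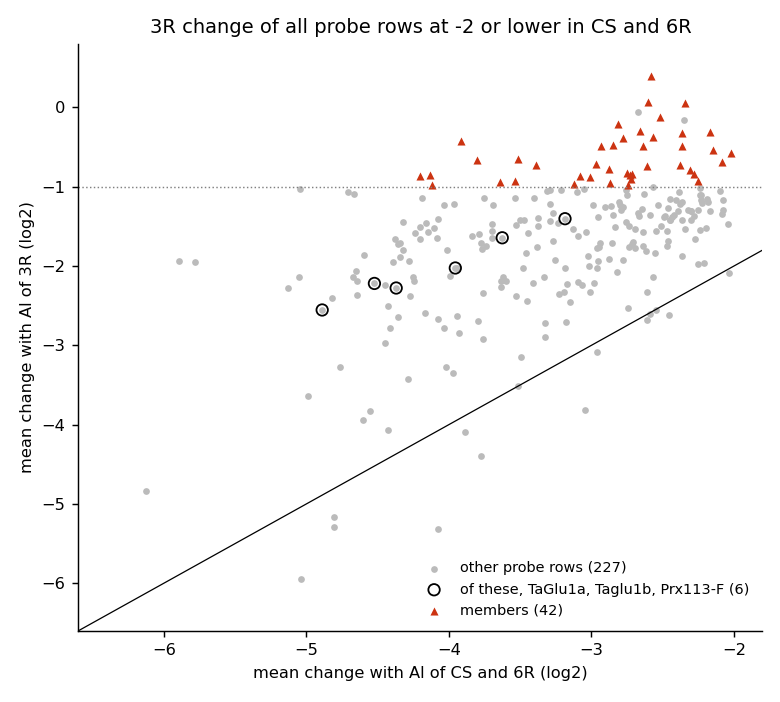
Mean 3R change (y axis) against the mean of the CS and 6R changes (x axis), both log2, for the 269 rows at -2 or lower in CS and in 6R. Triangles are the 42 members, above the dotted limit of -1 by choice, open circles the 6 rows of TaGlu1a, Taglu1b and Prx113-F, and the line marks equal change. Most grey points also lie above the line.

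Of the 269 rows, 17 carry a symbol, and none of these is a member. The beta-glucosidase gene TaGlu1a, whose enzyme releases defensive benzoxazinoids from their glucosides, has 4 rows there, with 3R changes at 49.1% to 52.2% of the other lines. The related gene Taglu1b stood at 44.1% (3R -1.40, CS -3.19, 6R -3.18), and the peroxidase gene Prx113-F at 45.3% (3R -1.64, CS -3.56, 6R -3.70). The gibberellin 20-oxidase gene GA20ox1d, listed as LOC543325, was at 57.8%. Among rows known by a LOC number alone, LOC100136980 had the lowest share, 40.4% (3R -1.86, CS -4.63, 6R -4.56). The highest share among the members was 41.2%, but the rule is set on the 3R change and not on the share. Of the named rows, the 3R change nearest to the -1 limit was that of LOC543148 (-1.20), at a share of 50.6%.

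The same limits were applied with the lines exchanged, a setting chosen after the data were seen. With CS as the line of smaller fall, 83 rows were at -2 or lower in 3R and 6R, and 1 of them met the rule. With 6R in that place there were 81 such rows and none met it. The line exchanged had a median change of 107% of the others for CS and 126% for 6R, against 51.2% for 3R. Requiring a strong fall in both other lines favours rows that read low there. The exchanged sets also require -2 or lower in 3R, and 80 of the 83 rows and 80 of the 81 were that low in every line. The choice thus left few rows that could meet the exchanged rule, and nothing is read from the counts of 1 and 0. The shares of 107% and 126% are taken against a mean that includes 3R, so they are not directly comparable with 51.2%. For rises, with the level limit put on the Al mean, 6 rows met the rule for 3R, 5 for CS and 0 for 6R. Before that limit, 22 of 358 rows changed by under 1 in 3R, 7 of 247 in CS and 0 of 208 in 6R. Nothing is read from these counts either. Over the 358 rows at 2 or higher in CS and 6R, the median change was 2.07 in 3R against 2.67 in the others.

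**Figure D5:**
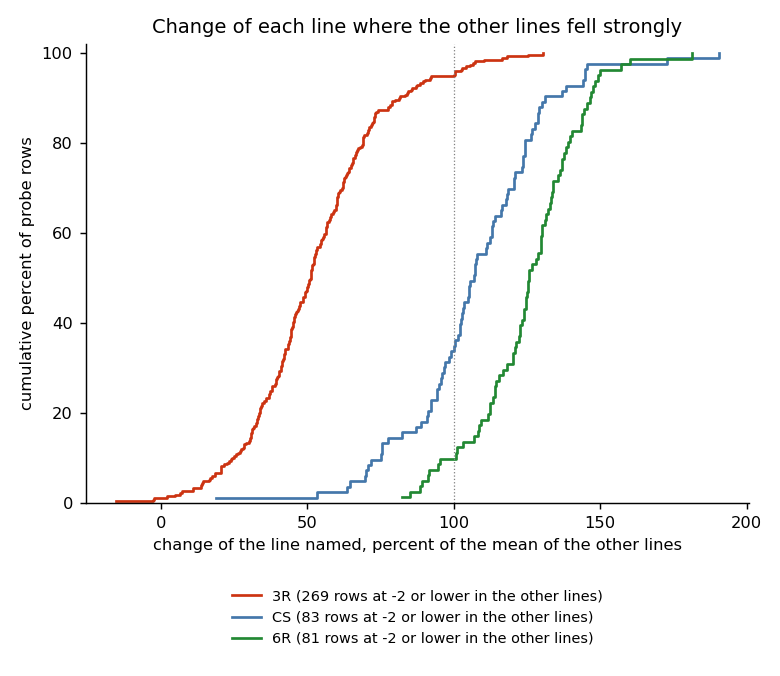
Cumulative percent of rows (y axis) by the change of 1 line as a percent of the mean of the other lines (x axis), for rows at -2 or lower in those other lines. The 3R curve (269 rows, median 51.2%) lies left of the CS curve (83 rows, median 107%) and the 6R curve (81 rows, median 126%). For the CS and 6R curves the mean of the other lines includes 3R.

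Arrays left out of the choice mostly gave the same order. When the members were chosen from 2 replicates of each line and read in the remaining one, 40 of 49 rows in replicate 1, 40 of 44 in replicate 2 and 42 of 42 in replicate 3 had a 3R ratio above both others. Over all rows this order was found in 26.8%, 25.0% and 31.7%. Over all rows at -2 or lower in CS and 6R by the same choice (250, 276 and 244 rows), it was found in 72.4%, 87.7% and 94.3%, so it was common to most strong falls. In these unused arrays the median 3R minus CS difference was 2.13, 1.79 and 2.51, and the median 3R minus 6R difference was 1.34, 1.75 and 2.07. Over all those strong falls the medians were 1.51, 1.01 and 1.78 against CS and 0.96, 2.04 and 1.90 against 6R, the middle one of the latter above that of the members. Of the rows chosen, 28, 23 and 33 were among the 42 members. The order is that of 1 array per line at a time and has no replicate error of its own. In replicates 1 and 2, 3R and 6R had Al in opposite dyes. A dye effect therefore does not cancel in the 3R minus 6R readings of these replicates, or in the order.

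Slides were taken from the number that opens each scanner file name in the labels, which is an inference. They held replicates 1 and 2 of 3R and 6R together, replicates 1 and 2 of CS on another, and replicate 3 of all lines on the last. Within the slide of replicate 3, where all lines had Al in Cy3, the members' median differences were 2.76 for 3R minus CS and 2.12 for 3R minus 6R, against 2.15 and 2.14 pooled. Within the slide that held the first 2 replicates of 3R and 6R, 3R minus 6R was 2.26.

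Dye effects were common over all rows, the members included. The term for Al in Cy3 against Al in Hyper 5 was called for 21 of 42 (against 39.6% of all rows), higher with Cy3 for 8 (18.2%) and lower for 13 (21.4%). Its size was over 1 log2 unit for 15 members, up to 3.70 for row 23900, whose ratios were 0.99, -3.16 and 0.55 in 3R and -0.66, -4.52 and -1.18 in CS. Each line had 2 arrays with Al in Cy3 and 1 with it in Hyper 5. A shared dye effect thus shifts all line means alike and cancels in the differences of these means. The dye effect does move the means against the limits: with it removed 46 rows met the rule, of which 34 were among the 42.

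The labelled tissue was compared with marker lists of rows that carry a symbol. Rows of 4 beta-tubulin genes and the histone gene H2A-2 came from a list for dividing cells (15 rows, 5 of 11 symbols listed). As a list they had levels of 11.8 to 13.0 over the samples, with 1 row at a mean under 6.3. Whether they follow cell division was not tested. The list for seed storage and endosperm (15 rows, 5 of 6 symbols) had levels of 6.05 to 6.95, with 9 rows near the floor. The list for photosynthesis (23 rows of rbcL, rbcl, PsbO and PsbP, 4 of 6 symbols) was at 8.81 to 10.4, with 1 row under 6.3. Its part in the members' values was not tested. The tubulin and histone rows had median changes, with the dye effect removed, of -0.52 in CS, -0.63 in 6R and -0.29 in 3R. Their 3R response was called different from CS or 6R in none of 15 rows in limma, with 7 and 9 rows at an unadjusted p under 0.05. Median 3R minus CS and 3R minus 6R differences were 0.18 and 0.40 there, against 2.15 and 2.14 in the members. In pooled root tips, fewer cells of a type and less RNA per cell cannot be told apart, and the part of cell makeup in the members' values was not tested.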

How the data were processed

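Root apices of 3 lines with and without Al were measured on 9 arrays of 2 colours, each channel deposited as a sample, 18 in all. The deposited values are log2 intensities for 45220 rows, and limma is named in the submitters' processing notes. How background was corrected and arrays were normalized is not given in the sources used here. Samples of a line share their distribution and lines do not (sample medians 7.335 for CS, 7.224 for 6R, 7.095 for 3R), so the deposited log2 values look quantile normalized within each line. Replicates of a group correlated at 0.941 to 0.980, no 2 columns were identical, and the number of arrays limits the precision.

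The within-array log2 ratio was fitted per row with limma 3.58.1 in R 4.3.3, with 3 line means and a shared dye term (5 residual degrees of freedom, prior 2.61). Levels were fitted on single channels with a random block for the array (consensus correlation 0.625, kept when a replicate was left out). A call means an adjusted p under 0.05 (Benjamini-Hochberg, over all rows). SD values are over 3 arrays of uncorrected ratios, and SE values are from the fits. The pairing comes from the shared arrays: after group means and dye, the pair on each array had a correlation between 0.722 and 0.855. For 6R the labels' replicate numbers 1 and 2 are exchanged in the scanner file names, and the title numbers were used.

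The rule took plain means of the deposited values. Of 553 array symbols, 551 were found as a symbol or synonym in a gene table of the assembly IWGSC CS RefSeq v2.1, used for names alone, through which LOC543365 is Prx113-F. Members and marker lists were chosen with earlier results of these data known. The text names members with a symbol (there were none), the 12 unnamed members of largest 3R difference, and up to 3 rows on each side of each limit. Other rows were named after their values were seen, and no other probes of members' genes could be read, since no member has a symbol. The fits were tested on simulated data. Alternatives were the array block, the dye term, a filter on dim rows (mean under 6.3), a common quantile normalization, each replicate left out, the slide, and other limits of the rule. Python 3.11.15 with pandas 2.3.3 was used for the rule.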

Additional observations from a re-analysis of the deposited data

Results flagged for a closer look

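The response to Al of 3R differed from that of CS for 27 of the 42 members and from that of 6R for 27, by the test of the difference itself in limma (adjusted p under 0.05). The members were chosen for this difference and the comparisons share the 3R samples, so the counts of 27 describe the choice. The median difference was 2.15 log2 units against CS and 2.14 against 6R.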

How the results depend on the processing

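The number of members, 42, was 71 on slide 3 alone, 81 and 24 with the 3R limit lower or higher by 0.25, and 140 and 20 with falls of -1.5 and -2.5. It was 1 and 0 with CS and 6R as the line of smaller fall. For rises, with the level limit put on the Al mean, it was 6, 5 and 0 for 3R, CS and 6R. Without 1 replicate of each line it was 42 to 49, and with a common quantile normalization 49, which held all 42. Calls of members lower in 3R, 14, became 0 with no replicate block (0.495% of all rows called) and 1 with no dye term (1.39%). With 1 replicate left out they were 2 to 23. They were 2 without 3R replicate 2 (1.58% of all rows), 8 without 3R replicate 1 (3.55%) or 3 (2.70%), and 23 without CS replicate 2 (9.18%). Without the array pairing as a replicate block, calls between 3R and CS went from 27 to 10 (0.270% of all rows). Calls between 3R and 6R went from 27 to 4 (0.0354%). With no dye term they were 8 (0.285%) and 3 (0.0907%). With 1 replicate left out they were 18 to 35 (0.650% to 2.25%) and 16 to 30 (0.190% to 1.35%). Calls in CS were then 40 to 42 (7.20% to 12.6%) and in 6R 39 to 42 (6.89% to 14.5%). With no replicate block they were 38 (2.13%) and 37 (2.55%). Control levels of 6R and CS gave 0 to 0 calls in these settings (0.0221% to 0.0708% of all rows). The median 3R minus CS difference of 2.15 was 2.76 within slide 3 and 1.79 to 2.51 in arrays left out of the choice. The median 3R minus 6R difference of 2.14 was 1.34 to 2.07 there. The cause of these moves was not tested, except that fits with fewer arrays have fewer degrees of freedom. Of the other settings, 83 values stayed within 1.5 times or within the spread of the arrays.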

Other observations

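The 2 rows that met every limit but that on the 3R control level were low in 3R without Al too. Row 21650 had a 3R control mean of 6.23 and changes of -0.16 in 3R, -2.32 in CS and -2.38 in 6R. Row 24248 had a 3R control mean of 6.09 and changes of -0.05, -2.80 and -2.54. Both 3R control means are under 6.3, near the lowest values of the arrays.

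Between 6R and CS the median difference of the response was 0.03 log2 units over the members, from -1.2474 to 2.37, and 6R was the lower line for 20 of 42. The rule used both responses.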
